A study of Homo sapiens with 18 samples.

Results

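Cytosolic ribosomal protein genes encode the proteins of the ribosome that translates nuclear mRNAs. The set was given as 55 transcript identifiers, 29 of large subunit proteins and 26 of small subunit proteins, chosen by what the genes encode and not by any measured value. All 55 were in the mRNA tables, among 98334 transcripts. The footprint tables held 52 of them among 26679 transcripts, and the 3 absent identifiers were all of the small subunit. RPL26, the protein of the large subunit to which the ubiquitin-like modifier UFM1 is attached, was left out of the set by design and was not analysed here. The deposited tables name transcripts by identifier only and no table at hand pairs those identifiers with symbols, so the 9 members whose symbols came with the set (RPL3, RPL4, RPL5, RPLP0, RPLP1, RPLP2, RPSA, RPS2 and RPS3) are named and any other by its identifier.

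The cells were HEK293, a human embryonic kidney line. The wild type (WT) was unedited HEK293; the UFM1-KO and UFSP2-KO lines were each 1 clone of HEK293 made with Cas9, lacking UFM1 or UFSP2, a protease that removes UFM1 from proteins. Ribosome profiling, which sequences the mRNA fragments that ribosomes protect from RNase I, was done on a cytosol fraction released by digitonin and on a membrane fraction released by Triton from what digitonin left. Messenger RNA was sequenced from whole cells after removal of ribosomal RNA. There were 2 libraries, a and b, in every one of the 9 groups, with no statement that they came from separate cultures, so the p-values measure only the spread between these libraries, which may be technical. With 1 clone for each knockout, the deletion and other differences between clones cannot be told apart, and in these bulk libraries a change in every cell and a change in the mix of cells cannot be told apart either.

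A mammalian ribosome is built from a large and a small subunit, and nearly every ribosomal protein is present once in each ribosome. The lateral stalk of the large subunit, which recruits and activates translation factors, is the known exception: RPLP0 anchors it and carries dimers of RPLP1 and RPLP2. The mRNAs of this family belong to the class that starts with a 5′ terminal oligopyrimidine tract (TOP), through which their translation is coordinately raised or held back with growth signals. Ribosomal proteins carry no signal for insertion at the endoplasmic reticulum and are made on cytosolic ribosomes, then imported to the nucleolus for assembly. UFM1 is attached to ribosomes at the endoplasmic reticulum.

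The start of transcription is given here for the named members that the RefSeq table of gene starts (GRCh38.p14) holds, since the TOP tract there is the sequence the family shares. Each line gives 15 bases before the annotated start and 15 from it, 5′ to 3′ on the transcribed strand. Capitals mark the longest run of C and T that begins with C.
RPL3: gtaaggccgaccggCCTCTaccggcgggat
RPL4: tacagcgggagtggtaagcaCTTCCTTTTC
RPLP0: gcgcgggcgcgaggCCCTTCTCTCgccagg
RPLP1: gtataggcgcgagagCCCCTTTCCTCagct
RPLP2: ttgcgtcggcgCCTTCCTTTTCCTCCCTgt
RPSA: tttcctgccgcctgtCTTTTCCgtgctacc
RPS3: gcccgcgagccaCTTCCTTTCCTTTCagcg

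These windows lie at chr22:39319609-39319638 (RPL3, minus strand), chr15:66504841-66504870 (RPL4, minus), chr12:120201097-120201126 (RPLP0, minus), chr15:69452803-69452832 (RPLP1, plus), chr11:809952-809981 (RPLP2, plus), chr3:39406705-39406734 (RPSA, plus) and chr11:75399503-75399532 (RPS3, plus), so that each spans the promoter edge and the first bases of exon sequence. RPL5 and RPS2 had no entry among the gene starts. A C at the annotated first base followed by 4 more pyrimidines, read on the transcribed strand only, was found in 5 of the 7 genes. RPL3 and RPL4 had no such run at that base but had one within the stretch from 10 bases before it to 15 bases from it, as did the other 5. Among all 35116 genes with a start window, 4.07% had the run at the first base and 33.5% in the wider stretch. Among 77 genes with a cytosolic ribosomal protein symbol, RPL26 left out, the shares were 59.7% and 83.1%. A match describes these letters and is not a mapped start site.

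Library totals ran from 1393032 counts (WT cytosol a) to 11388755 (WT membrane b) for footprints and from 37451244 to 68675420 for mRNA. Even in the smallest library the least covered member held 184 counts. Between libraries of 1 footprint group the members' log2 difference varied with an SD of 0.131 to 0.238, against a median counting SD of at most 0.05, so the spread between libraries and not counting set the precision. In WT cytosol 49 of the 52 members were higher in b than in a, by a median of 0.22 on the log2 scale. In WT mRNA only 6 of 55 were. Other features at least as abundant as the lowest member had medians of 0.22 and -0.07, in the same order. The labelled fractions and the knockouts could not be checked against marker or target genes, for lack of symbols.

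Per unit length, the members' footprints spread widely around a common level. Levels here are normalised counts (CPM, after scaling by the trimmed mean of M-values, TMM) per 100 codons. In WT cytosol they ran from 257 to 2380 with a median of 896, and 43 of the 52 members lay within 2-fold of the median. In WT membrane they ran from 102 to 1730 with a median of 560, and in WT mRNA from 375 to 2170 with a median of 766. The SD of the log2 level over members was 0.741 in cytosol footprints and 0.651 in mRNA, so footprints were no more even among members than mRNA was. The highest in WT cytosol were a large subunit transcript of 85 codons, ENST00000347512, at 2380 ± 199 (SD, n = 2), and a small subunit transcript of 126 codons, ENST00000251453, at 2290 ± 33.9, whose ranges overlapped. The lowest was a small subunit transcript of 99 codons, ENST00000009589, at 257 ± 101, next to another of 112 codons, ENST00000230050, at 329 ± 72.8, which overlapped it too. Among named members RPLP1 stood 6th of 52 at 1500 ± 140, followed by RPLP2 at 966 ± 31.4. RPS3 (769 ± 68.0), a small subunit protein beside the mRNA entry channel, and RPL4 (708 ± 128), a large subunit protein that lines the peptide exit tunnel, came next and overlapped. RPS2 (638 ± 19) and RPL5 (595 ± 129), which binds the 5S ribosomal RNA, also overlapped. RPSA (488 ± 10.3), the laminin receptor homologue of the small subunit, lay within the spread of RPL3 (479 ± 45.3), which lies near the peptidyl transferase centre, and RPLP0 was the lowest of the 9 at 390 ± 79.8. Ribosomal protein genes have many processed pseudogenes and how reads with several matches were counted is not given, so levels between genes carry that uncertainty.

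The stalk proteins differed from one another more in footprints than in mRNA. In WT cytosol RPLP1 (1404 and 1602 per 100 codons) and RPLP2 (943.5 and 987.9) lay within 2-fold of the members' median of 896. RPLP0 (334.1 and 446.9) lay below that range, and its low level enters the ratios to it. RPLP1 and RPLP2 held several times more footprints per codon than RPLP0, while their mRNAs were near or below that of RPLP0 per codon. In WT cytosol the ratio of RPLP1 to RPLP0 was 4.2 in a and 3.58 in b, and that of RPLP2 to RPLP0 was 2.82 and 2.21. In WT mRNA the same ratios were 0.937 and 1.08 for RPLP1, and 0.678 and 0.769 for RPLP2. Over all 12 footprint libraries the RPLP1 ratio lay between 3.2 and 5.54, and over the 6 mRNA libraries between 0.937 and 1.39, so the assays did not overlap. For RPLP2 the ranges were 1.65 to 2.82 and 0.557 to 0.936, again without overlap. The sum of RPLP1 and RPLP2 over RPLP0 came to 6.41 ± 0.871 in WT cytosol, 5.55 ± 0.992 in UFM1-KO cytosol and 6.79 ± 0.947 in UFSP2-KO cytosol (SD, n = 2), and these ranges overlapped. The pattern was picked out after the values were seen and no test is given for it. RPLP1 and RPLP2 are also much shorter than RPLP0, with 94 and 95 codons counted against 297, and the part that length plays in the footprint ratio was not tested.

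**Figure D1:**
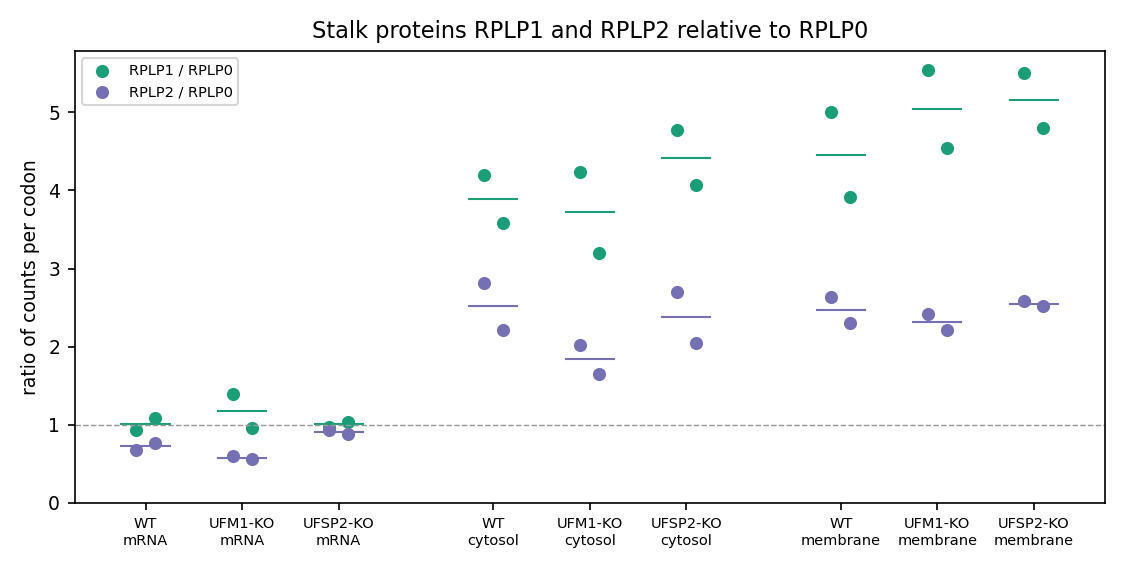
Ratio of counts per codon of RPLP1 (green) and RPLP2 (purple) to RPLP0 in each of the 18 libraries; points are libraries, bars are means of 2 and the dashed line marks a ratio of 1. Footprint ratios of RPLP1 lie between 3.2 and 5.54 and mRNA ratios between 0.937 and 1.39.

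In WT most members had more cytosol footprints, relative to their own whole-cell mRNA, than the typical transcript. The ratio counts no membrane footprints, so the division of a transcript between the fractions enters it. How far that sets the members apart from other features was not tested. The comparison of cytosol footprints with whole-cell mRNA, both scaled by TMM, called 32 of 52 members higher and 3 lower (edgeR quasi-likelihood test, Benjamini-Hochberg adjusted p under 0.05 over 12629 features), where 16.6% of all features were called higher and 41% lower. The members' median log2 difference was 0.66 and that of all features was -0.53. Abundance goes with this: of 386 features at least as abundant as the lowest member, 314 were called higher, with a median of 1.27, above that of the members. With all 18 libraries scaled together, ENST00000251453 had 3338 and 3308 CPM in WT cytosol and 718.6 and 708.3 CPM in WT mRNA. Its log2 difference was 2.22 ± 0.21 (SE; edgeR adjusted p = 8.43e-10), the highest of the members. RPLP1 (1.44 ± 0.20, edgeR adjusted p = 5.50e-07) and RPLP2 (1.28 ± 0.19, 2.33e-06) rose above their mRNA, as did RPL5 (0.94), RPL3 (0.81) and RPS3 (0.72). RPS2, a small subunit protein near the mRNA entry, was the lowest at -0.66 ± 0.19 (edgeR adjusted p = 0.00487), and RPLP0 was lower by the same test at -0.49 ± 0.20 (0.0379). The RPLP0 call was lost with RLE size factors (-0.27), with DESeq2 (-0.27), in a model of only the groups compared (-0.24), with the length trend removed (-0.33) and without library a of WT cytosol (-0.29) or WT mRNA (-0.36). RPL4 (0.26) and RPSA (0.25) did not pass. Scaling by library size alone moved the median of all features to -1.24 and that of the members to -0.03, with 16 called higher and 15 lower, so the sign depends on the scaling; RPL5, RPL3 and RPS3 did not pass with it.

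Shares here are of the counts summed over distinct features (transcripts with identical counts in every library merged), not of the library totals above. By this share the members took less of the membrane footprints than of the cytosol footprints in every line. In WT they took 4.592% and 4.642% of membrane counts and 7.403% and 8.001% of cytosol counts. In UFM1-KO the shares were 4.042% and 4.163% against 6.71% and 7.154%, and in UFSP2-KO 4.566% and 4.58% against 8.116% and 9.033%. No membrane library reached the lowest cytosol library. A comparison of 2 against 2 libraries cannot give an exact two-sided permutation p under 0.333, and that was the p in each line. In whole-cell mRNA only 25632 of the 98334 transcripts entered the sum, those matched to the footprint tables and the 3 members absent there. Of these mRNA counts the members took 8.08% ± 0.686 (WT), 9.037% ± 0.391 (UFM1-KO) and 9.353% ± 0.301 (UFSP2-KO), as mean ± SD with n = 2. The mRNA shares sum 55 members and the footprint shares 52, so they are not directly comparable.

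**Figure D2:**
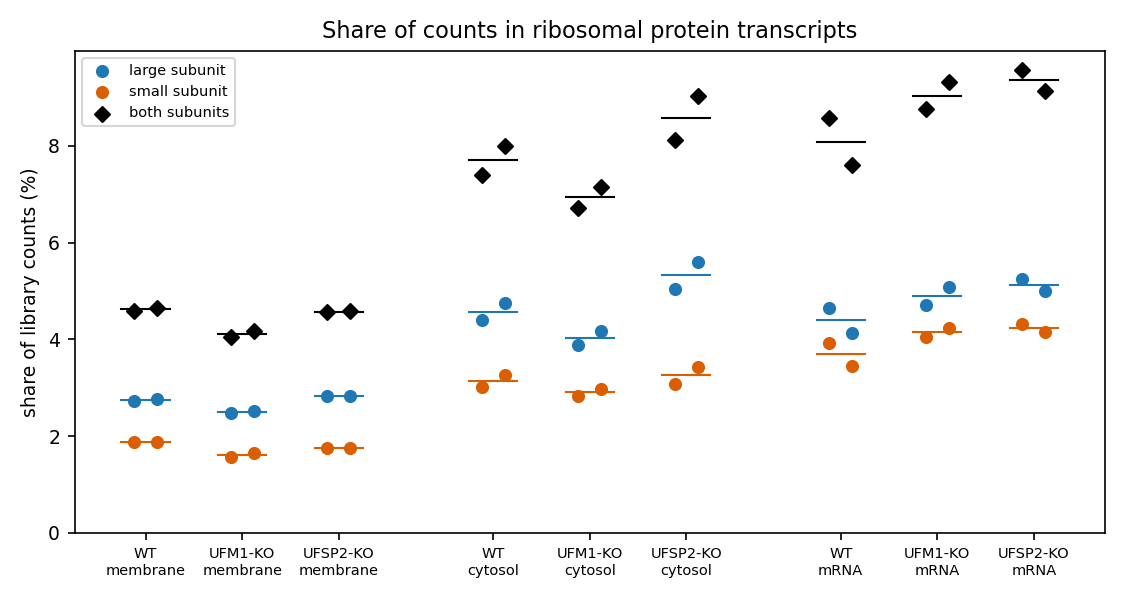
Share of each library's counts over distinct features (percent) held by the ribosomal protein transcripts (52 in footprints, 55 in mRNA). Both subunits together are black, the large subunit blue and the small subunit orange. Points are libraries a and b and bars their mean. Membrane shares lie between 4.042% and 4.642% and cytosol shares between 6.71% and 9.033%.

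In the cytosol libraries the split between subunits lay apart between the lines, which was not tested. Large subunit members held 1.464 and 1.454 times the counts of small subunit members in WT cytosol, 1.37 and 1.40 times in UFM1-KO cytosol and 1.642 and 1.629 times in UFSP2-KO cytosol, and no pair of lines overlapped. In mRNA the ratios lay between 1.161 and 1.213 in all 6 libraries, and WT lay inside the range of UFM1-KO. At the membrane WT (1.451 and 1.468) lay below both UFM1-KO (1.58 and 1.54) and UFSP2-KO (1.616 and 1.599), so UFM1-KO was the lowest line in the cytosol and not at the membrane. The ratio sums unequal numbers of members, 29 against 23 in footprints and 29 against 26 in mRNA, so its values are not comparable between the assays. It follows the most abundant members. Between the knockouts in the cytosol, the median log2 difference of UFM1-KO less UFSP2-KO was -0.60 for large and -0.53 for small subunit members.

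Member by member, footprints were fewer at the membrane than in the cytosol across the family. In WT all 52 members had a log2 ratio of membrane to cytosol below 0, from -1.71 to -0.05 with a median of -0.62, against a median of -0.02 over all features. Of these, 32 were called lower and none higher, where 12.2% of 11065 features were called lower (edgeR quasi-likelihood test, Benjamini-Hochberg adjusted over all features). Among 567 other features at least as abundant as the lowest member, 144 were called lower, with a median of -0.08 over the 567. The calls fell on both subunits, 19 of 29 large and 13 of 23 small. In 47 of the 52 both membrane libraries lay below both cytosol libraries, as in 31.3% of all features. UFM1-KO gave 23 lower and none higher, where 5.87% of features were lower, and UFSP2-KO gave 45 and none, where 12.2% were. The medians were -0.45 for UFM1-KO and -0.70 for UFSP2-KO. By call, 22 members were lower in all 3 lines, as were 3.27% of all features, and 45 in at least 1, as were 18.3%.

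ENST00000230050 of the small subunit had the lowest ratio in all 3 lines. Its WT libraries held 113.2 and 114.2 CPM at the membrane against 310.8 and 426.2 in the cytosol, a log2 ratio of -1.71 ± 0.22 (edgeR adjusted p = 1.87e-07). The ratio of UFM1-KO was -1.26 and that of UFSP2-KO -1.93. The next in WT was a large subunit transcript of 103 codons, ENST00000348462, with 569.2 and 546.4 CPM at the membrane and 1451 and 1480 in the cytosol (-1.39 ± 0.17, edgeR adjusted p = 1.07e-07). RPS2 fell by 0.83 ± 0.19 in WT (1015 and 944.5 CPM against 1706 and 1779; edgeR adjusted p = 0.000752), and it was called lower in both knockouts too. In the stalk, RPLP2 (-0.64) and RPLP0 (-0.63) were lower in WT and RPLP1 (-0.43, edgeR adjusted p = 0.0887) did not pass. RPL3 was lower as well (-0.59, edgeR adjusted p = 0.00905). These calls were lost with the length trend removed (-0.08 for RPLP2, -0.33 for RPLP0 and -0.42 for RPL3). They also depended on single libraries: RPLP2 did not pass without WT membrane b (-0.61), RPLP0 without WT cytosol b (-0.40) or membrane a (-0.56), and RPL3 without either membrane library (-0.59 and -0.58) or WT cytosol b (-0.48). RPSA (-0.36), RPL4 (-0.34), RPS3 (-0.30) and RPL5 (-0.29) did not pass in any line. At the other end, the shortest large subunit transcript, ENST00000361575 with 31 codons, had 347.3 and 373.2 CPM at the membrane and 282.8 and 457.7 in the cytosol of WT (-0.05 ± 0.23, edgeR adjusted p = 0.881), and these overlapped.

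**Figure D3:**
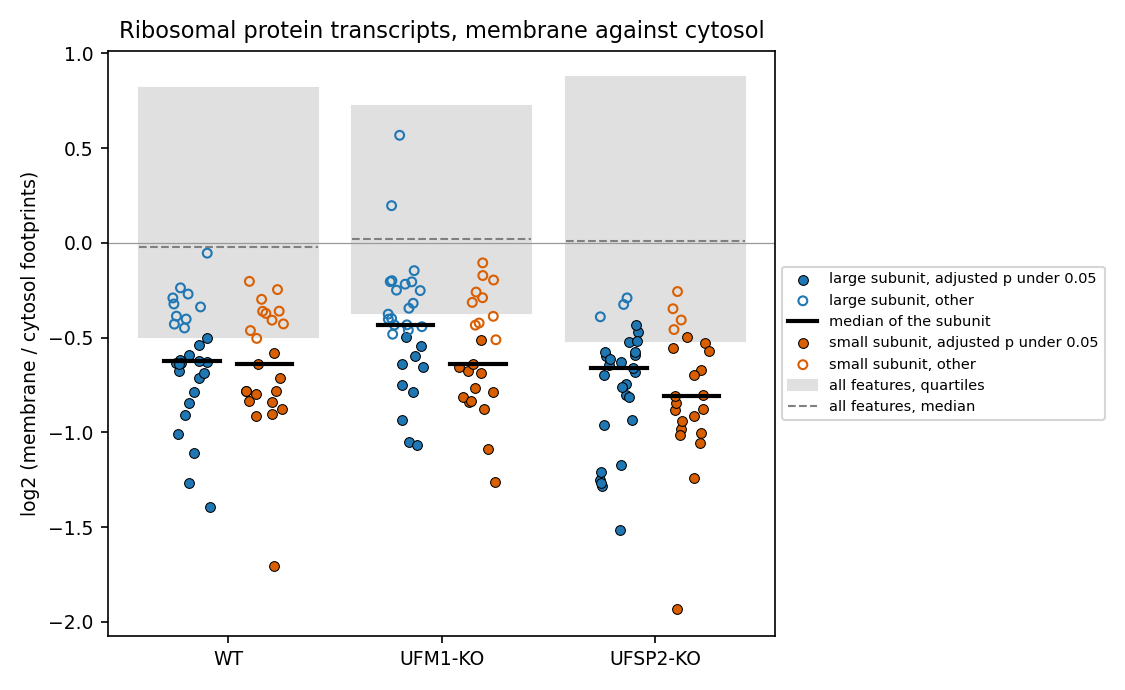
Log2 ratio of membrane to cytosol footprints for each of the 52 members in the 3 lines; filled points have an edgeR adjusted p under 0.05, black bars are subunit medians, and grey boxes with dashed lines are the quartiles and median of all 11065 features. All members lie below 0 in WT and UFSP2-KO, and 50 of 52 in UFM1-KO.

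Transcript length goes with these ratios over all features, and the members are mostly short, with a median of 138.5 codons. After a trend on length fitted over all features was removed, the members' medians were -0.15 for WT, -0.23 for UFM1-KO and -0.20 for UFSP2-KO. The counts called, by line, were 9 (1 higher, 8 lower), 14 (1 and 13) and 13 (all lower). Of all features 28.8%, 26.7% and 29.4% were called, counting both directions. These shares are not split by direction, so they give no background for the members' lower calls alone. Before the trend was removed more features were called higher than lower: 2802 and 1351 (WT), 2545 and 650 (UFM1-KO), 2741 and 1345 (UFSP2-KO). Among the members alone the ratio rose little with log2 length in WT (Pearson r = 0.119 over 52 members, which share the libraries), and more in UFSP2-KO (r = 0.378).

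No difference between lines in the membrane-to-cytosol ratio was detected for any member. The change of the ratio from WT to UFM1-KO had a median of 0.09, with 43 of 52 members above 0. That from WT to UFSP2-KO had a median of -0.11, with 11 members above 0. Of the 567 abundant features 319 and 191 were above 0, in the same order, with medians of 0.03 and -0.06. By edgeR 0 of 52 members passed in each change, and 0 by DESeq2, where 0.00904% of features passed edgeR. At an unadjusted p under 0.05 the members' counts were 1 and 0, against 539 and 487 of 11065 features. The member SE of about 0.27 (median) sets what could be seen. ENST00000361575 had the largest change, 0.62 ± 0.32 in UFM1-KO (edgeR adjusted p = 0.987). The medians' signs are not stable, turning in 3 of 17 alternatives for UFM1-KO and in 1 of 17 for UFSP2-KO. Among the members the UFSP2-KO change rose with length (r = 0.539), so shorter members had the more negative values.

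Against WT, few members changed in either knockout. In UFM1-KO the mRNA of 43 of 55 members lay above WT with a median of 0.22 (0.10 to 0.34 on leaving out 1 library). Of 504 features at least as abundant as the lowest member, 283 lay above WT, with a median of 0.05. By edgeR 0 members were called, where 1.97% of 13903 features were, and 1 passed by DESeq2. At an unadjusted p under 0.05 there were 14 members, against 2253 of the 13903 features and 86 of the 504. The members' cytosol footprints lay below WT in 48 of 52, with a median of -0.28 (-0.45 to -0.15 on leaving out 1 library). Of 567 abundant features 394 lay below WT there, with a median of -0.12. In the cytosol 3 members were called lower, where 0.687% of features were. At the membrane 47 of 52 members were below WT with a median of -0.15, as were 356 of the 567 abundant features (median -0.08). There 1 member was called lower, where 0.741% of features were. That member was a small subunit transcript of 49 codons, ENST00000600659, with 195.6 and 152.9 CPM in UFM1-KO and 377.6 and 329.3 in WT (-1.01 ± 0.21, edgeR adjusted p = 0.0121). It was also lower in the cytosol (281.1 and 322.7 against 694.5 and 524.3 CPM; -1.01 ± 0.21, edgeR adjusted p = 0.0189), and so was a large subunit transcript of 128 codons, ENST00000314138 (501.8 and 498.2 against 963.3 and 983.9 CPM; -0.96 ± 0.20, edgeR adjusted p = 0.0188). The membrane call was lost on leaving out any 1 library of the groups compared, and the 3 cytosol calls on leaving out either UFM1-KO library. The ENST00000314138 call was also lost without WT cytosol b, and the ENST00000600659 cytosol call without WT cytosol a (-0.81). In a model of only the groups compared both of these cytosol calls were lost (-0.93 and -0.98). The ENST00000600659 cytosol call was lost with the length trend removed too (-0.89). Of the named members RPSA (-0.62) and RPLP2 (-0.59) had the lowest cytosol values and did not pass.

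In UFSP2-KO the mRNA of 49 of 55 members lay above WT with a median of 0.42 (0.27 to 0.57 on leaving out 1 library). Of 504 abundant features 340 lay above WT, with a median of 0.14, and 30 were called higher and 12 lower. Of the members 8 were called higher and none lower, where 2.39% of all features were higher. Those 8 were 4 of each subunit. ENST00000348462 led them with 2609 and 2150 CPM in UFSP2-KO against 1150 and 1012 in WT (1.14 ± 0.20, edgeR adjusted p = 0.00287). The next was a large subunit transcript of 228 codons in the footprint tables, ENST00000352983 (0.89 ± 0.21, 0.0185). The count fell to 0 without WT mRNA library b, to 1 without UFSP2-KO library b and to 4 without UFSP2-KO library a. Named members reached 0.64 (RPSA, edgeR adjusted p = 0.0656) and did not pass.

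In footprints, 3 members passed in each fraction of UFSP2-KO. In its cytosol 2 members were called higher and 1 lower, where 1.49% and 2.5% of features were, and the median was 0.19 (0.0051 to 0.37 on leaving out 1 library); at the membrane 2 were higher and 1 lower, where 5.24% and 5.89% were, with a median of 0.03. ENST00000348462 rose in the cytosol, to 2923 and 2948 CPM from 1451 and 1480 (a log2 change of 1.0 ± 0.17, edgeR adjusted p = 0.000766), and rose at the membrane to 1028 and 1027 from 569.2 and 546.4 (0.88 ± 0.17, 0.00115). A large subunit transcript of 184 codons, ENST00000307839, was higher at the membrane (1953 and 1868 against 1243 and 1204 CPM; 0.64 ± 0.18, edgeR adjusted p = 0.0182), a call lost without any 1 of the 4 libraries compared. A small subunit transcript of 136 codons, ENST00000272317, was higher in the cytosol (806.4 and 1103 against 448.7 and 677.4 CPM; 0.76 ± 0.21, edgeR adjusted p = 0.0402), a call lost without UFSP2-KO cytosol b (0.64), without WT cytosol a (0.49) or in a model of only the groups compared. ENST00000251453 moved the other way, from 1788 and 1565 CPM to 888.6 and 879.1 at the membrane (-0.92 ± 0.17, edgeR adjusted p = 0.00062) and from 2914 and 2854 to 1858 and 1823 in the cytosol (-0.65 ± 0.17, 0.0253). That cytosol call did not pass without any 1 of the 4 libraries compared, with DESeq2, without the low-count filter or with the length trend removed. No named member passed in either fraction. With RLE size factors 6 were higher and 1 lower in the cytosol, and with library size alone 2 were higher and 2 lower at the membrane.

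**Figure D4:**
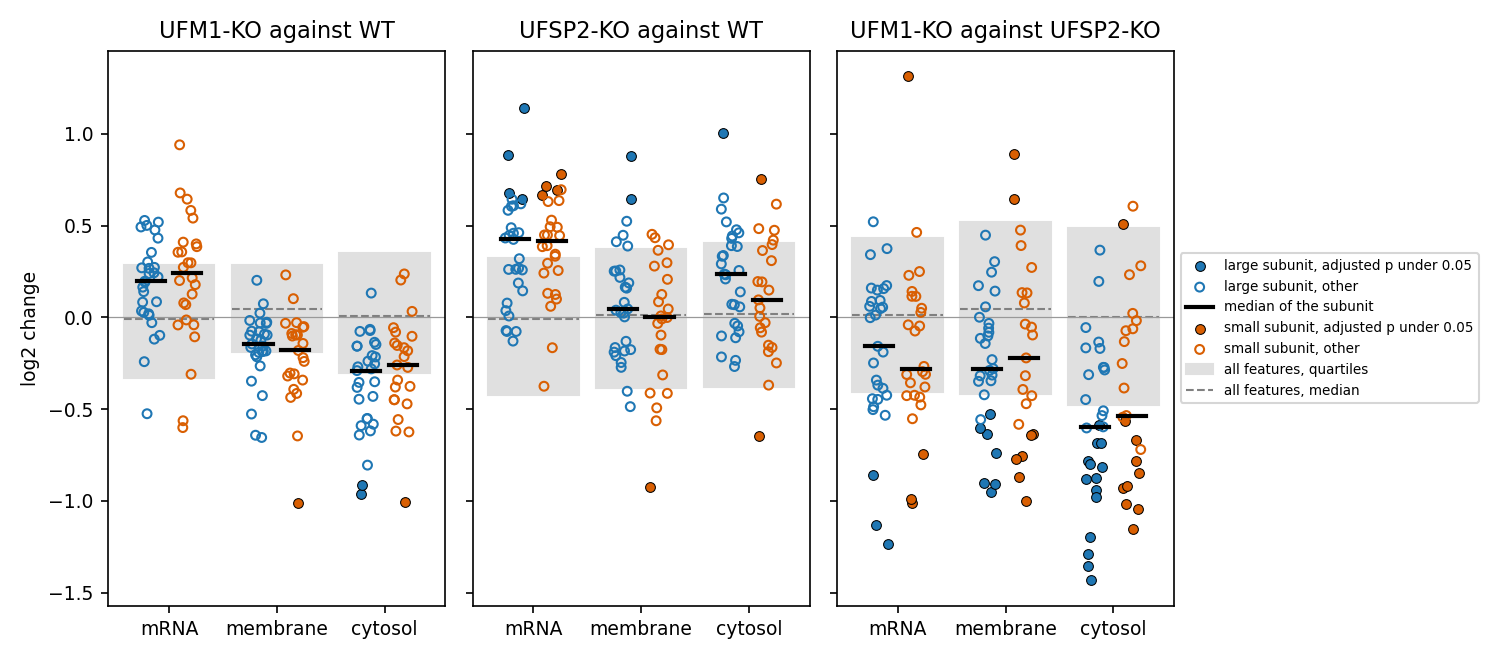
Log2 change of each member between lines, in whole-cell mRNA (55 members) and in membrane and cytosol footprints (52); filled points have an edgeR adjusted p under 0.05, black bars are subunit medians, and grey boxes and dashed lines are the quartiles and median of all features. Most calls are in the comparison of the knockouts with each other, with 23 members lower in UFM1-KO cytosol.

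In footprints more members differed between the knockouts than between either knockout and WT, and the cytosol had most of them. UFM1-KO cytosol footprints were lower than those of UFSP2-KO for 23 members and higher for 1, where 6.2% and 5.83% of features were, with a median of -0.55 against 0.00 over all features. Of the abundant features 115 of 567 were lower, with a median of -0.12. The lower calls comprised 14 of 29 large subunit members and 9 of 23 of the small subunit. In 35 of the 52 members both UFM1-KO libraries lay below both UFSP2-KO libraries, as in 24.7% of features. The count ran from 12 to 28 on leaving out 1 library, lowest without UFM1-KO cytosol a.

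ENST00000347512 held 1032 and 1117 CPM in UFM1-KO cytosol, 2924 and 2880 in UFSP2-KO and 2144 and 1905 in WT, and the knockouts differed by -1.43 ± 0.18 (edgeR adjusted p = 5.06e-06). ENST00000348462 differed by -1.36 ± 0.17 (6.73e-06), with UFM1-KO (1165 and 1129 CPM) nearer WT. RPSA held 871.3 and 869.4 CPM in UFM1-KO cytosol, 1727 and 1863 in UFSP2-KO and 1321 and 1361 in WT, so that no lines overlapped and WT lay between the knockouts (-1.04 ± 0.18 between them, edgeR adjusted p = 0.000344). RPS3 had the same order, with 1255 and 1391, 2292 and 2479, and 1609 and 1823 CPM (-0.85 ± 0.17, edgeR adjusted p = 0.00159). The stalk pair followed, RPLP2 at -0.80 ± 0.19 (edgeR adjusted p = 0.00556) and RPLP1 at -0.69 ± 0.20 (0.022). Neither of the pair passed without UFM1-KO cytosol b, and RPLP1 did not pass with DESeq2 (-0.70). RPLP0 (-0.45, edgeR adjusted p = 0.134) did not pass. Neither did RPL3 (-0.51), RPL5 (-0.29), RPL4 (-0.13) or RPS2 (0.23). ENST00000251453 was the 1 member called higher in UFM1-KO (0.51 ± 0.17, edgeR adjusted p = 0.0469), and it did not pass without any 1 of the 4 libraries compared, with DESeq2, without the low-count filter or with TMM factors computed without the members.

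At the membrane 33.3% of 567 abundant features were called between the knockouts, 99 lower and 90 higher in UFM1-KO, with a median of -0.02. Of the members 28.8% were called. In UFM1-KO 13 members were lower than in UFSP2-KO and 2 higher, where 10.2% and 11.2% of all features were, with a median of -0.25. RPSA (874.4 and 668.5 against 1359 and 1464 CPM; -0.87 ± 0.18, edgeR adjusted p = 0.00108) and RPS3 (1054 and 1076 against 1825 and 1775 CPM; -0.76 ± 0.17, 0.00231) were the named members among them. The extremes were ENST00000600659 at -1.0 and ENST00000352983 at -0.95 on the lower side, and ENST00000251453 at 0.89 and a small subunit transcript of 36 codons, ENST00000245458, at 0.64 on the higher side. The ENST00000245458 call was lost with the length trend removed (0.0078), with DESeq2 (0.59), and without UFM1-KO membrane a (0.38), UFSP2-KO membrane a (0.53) or b (0.75).

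In mRNA 6 members were lower in UFM1-KO and 1 higher, where 8.02% and 7.93% of features were, so the members' share was near the background. RPSA was among the lower (1475 and 1811 against 2899 and 2595 CPM; -0.74 ± 0.20, edgeR adjusted p = 0.0195), a call that did not pass without library a of either knockout. ENST00000348462 (-1.24 ± 0.20, edgeR adjusted p = 0.000729) and ENST00000347512 (-1.13 ± 0.21, 0.00208) were lower too. ENST00000251453 was higher by 1.31 ± 0.24 (edgeR adjusted p = 0.00185), with 2422 CPM in UFM1-KO a, 1309 in b and 721.7 and 778.1 in UFSP2-KO, so the UFM1-KO libraries differed between themselves. With library size alone 3 were higher and 6 lower.

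The calls of the knockout comparison overlapped between assays, which share no library. In both fractions 14 members were called, 58.3% of the 24 cytosol calls and 93.3% of the 15 membrane calls; over all features the shares were 61.7% and 34.6%. In all 3 assays 6 were called, which were 25% of the cytosol calls and 85.7% of the 7 mRNA calls; the remaining mRNA call was on a member with no footprint entry. Over the features present in both models, 54% of the cytosol calls were also mRNA calls and 38.6% of the mRNA calls were also cytosol calls. Across the 52 members the log2 differences between the knockouts correlated with r = 0.792 between cytosol footprints and mRNA, 0.853 between membrane footprints and mRNA, and 0.854 between the fractions. These correlations are across genes, which are not independent replicates, and libraries of a line may come from the same cells. The levels of the differences were not alike: the medians were -0.55 in the cytosol, -0.25 at the membrane and -0.19 in mRNA, and RPLP1 had 0.34 in mRNA and -0.69 in cytosol footprints.

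**Figure D5:**
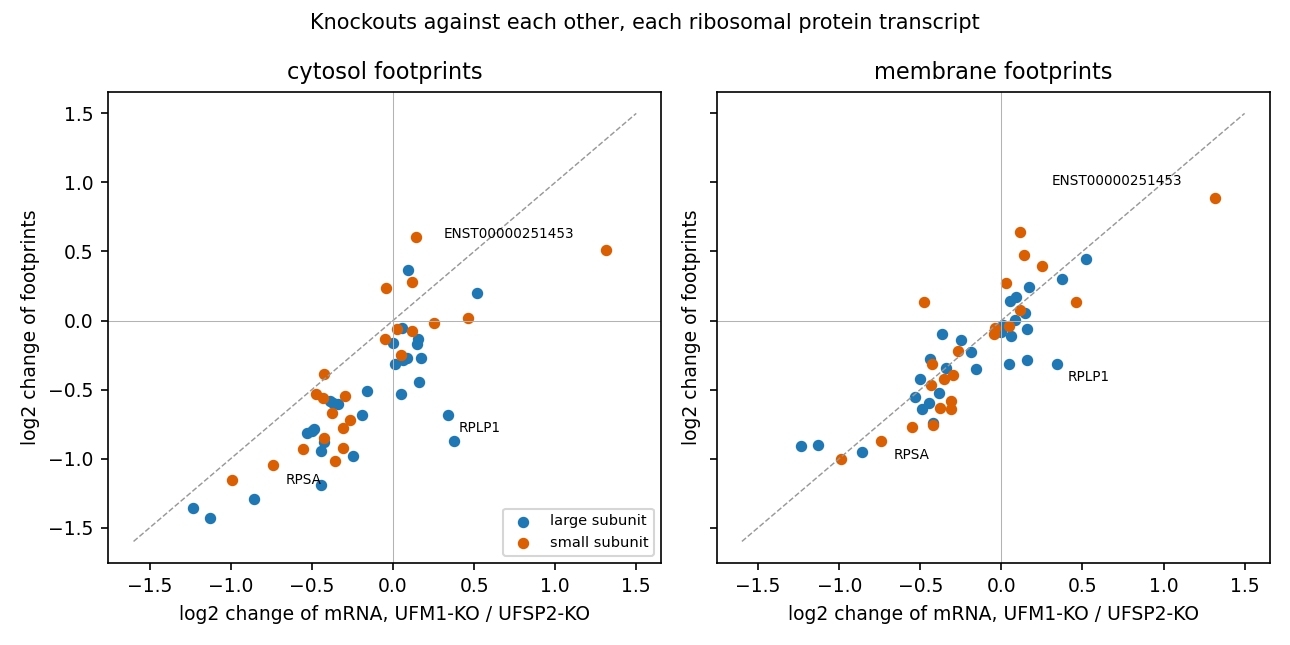
Log2 difference between UFM1-KO and UFSP2-KO for each of the 52 members in whole-cell mRNA (x axis) and in footprints (y axis) of the cytosol (left) and the membrane (right); the dashed line marks equal differences. RPSA lies low on both axes and ENST00000251453 high on both, and in the cytosol most members lie below the dashed line.

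Footprint changes less mRNA changes leaned below 0 in both knockouts against WT without any member passing. The medians were -0.53 in UFM1-KO cytosol, where all 52 members were below 0, and -0.42 at the UFM1-KO membrane, with 51 below 0. In UFSP2-KO they were -0.18 in the cytosol, with 42 below 0, and -0.40 at the membrane, with 50 below 0. In all 4 comparisons 0 members passed by edgeR and 0 by DESeq2, where the shares of all features called by edgeR were 0%, 0%, 0.0158% and 0.0792%. At an unadjusted p under 0.05 the counts were 22, 13, 2 and 6, in the same order, where 5.96%, 4.28%, 6.88% and 8.79% of all features had such a p. In the UFM1-KO comparisons the abundant features had medians of -0.20 in the cytosol and -0.21 at the membrane, and in the UFSP2-KO comparisons -0.12 and -0.27. All 4 comparisons rest on the same WT mRNA libraries, of which b held less of the members than a (7.595% against 8.566%). RPL5 had the lowest UFM1-KO value of the named members, -0.65 ± 0.30 in the cytosol (edgeR adjusted p = 0.822), and RPLP1 the highest UFSP2-KO value, 0.60 ± 0.28 (0.697). With the length trend removed the UFSP2-KO cytosol median was 0.02 and the membrane median -0.06.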

How the data were processed

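The deposited tables held raw counts per versioned Ensembl transcript. The submitters' processing notes name GRCh38 and TopHat2 2.1.1; how the authors counted reads, and those with several matches, is not given in the sources used here. A second deposited column was read as a length in codons, 1 larger in the mRNA tables, and was used only per 100 codons and for the length trend. Groups followed the labels. The mRNA tables were cut to 25632 transcripts, the 25629 matched to the footprint tables by identifier and length and the 3 members absent there. Transcripts with identical counts in every library were merged into 1 feature. Counts were filtered with filterByExpr (minimum count 10), scaled by TMM and tested two-sided with edgeR 4.0.16 (R 4.3.3; glmQLFit and glmQLFTest, 1 coefficient per group), with Benjamini-Hochberg adjustment over all features and a threshold of 0.05. The 12 footprint libraries, the 6 mRNA libraries and all 18 together each had 1 model; SE is the log2 change over the square root of F. All members in the tables passed the filter. The models were tested on simulated data.

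Shares were taken over the counts of distinct features and compared by exact permutation tests. Members and lists were chosen with earlier results of these data known. Named members were the 9 with symbols; in each comparison they were joined by called identifiers from among those with the largest changes, at most 2 in each direction, and levels by the highest and lowest per codon. Lists defined by symbols (other ribosomal protein, TOP and assembly genes, fraction markers, the deleted genes) could not be applied and were not analysed here. Alternatives were DESeq2 1.42.0, RLE or library size scaling, TMM without the members, no filter, unmerged transcripts, only the groups compared, a replicate block, removal of the length trend and leaving out each library.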

Additional observations from a re-analysis of the deposited data

Results flagged for a closer look

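Under the same contrast with WT the 2 knockouts differed from each other by the direct test between them (edgeR adjusted p under 0.05) in 24 members in cytosol footprints, 15 in membrane footprints and 7 in mRNA. In the cytosol the log2 difference of UFM1-KO less UFSP2-KO was -1.43 for ENST00000347512, -1.36 for ENST00000348462, -1.04 for RPSA, -0.85 for RPS3, -0.80 for RPLP2, -0.69 for RPLP1 and 0.51 for ENST00000251453. At the membrane it was -1.0 for ENST00000600659, -0.95 for ENST00000352983, -0.87 for RPSA, -0.76 for RPS3, 0.64 for ENST00000245458 and 0.89 for ENST00000251453. The ENST00000245458 difference did not pass with the length trend removed (0.0078), with DESeq2 (0.59), or without UFM1-KO membrane a, UFSP2-KO membrane a or UFSP2-KO membrane b. In mRNA the log2 difference was -1.24 for ENST00000348462, -1.13 for ENST00000347512, -0.74 for RPSA and 1.31 for ENST00000251453. Of the cytosol differences, those of RPLP1 and ENST00000251453 did not pass with DESeq2 (-0.70 and 0.49). Those of RPLP1 and RPLP2 did not pass without UFM1-KO cytosol b.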

How the results depend on the processing

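Over the alternatives run, 215 of the counts of members called stayed within 1.5 times their value and 56 did not, and of the log2 values of single members 634 kept direction and call, 79 no longer passed and 2 reversed. Both reversals came in UFSP2-KO membrane against cytosol with the length trend removed, RPLP1 at 0.20 and RPLP2 at 0.0872. Removing that trend also moved the membrane-against-cytosol counts to 9, 14 and 13 (WT, UFM1-KO, UFSP2-KO), the membrane counts to 4 (UFM1-KO against WT), 11 (UFSP2-KO against WT) and 27 (between knockouts), the cytosol UFSP2-KO count to 11 and the mRNA counts against WT to 1 (UFM1-KO) and 5 (UFSP2-KO). In WT membrane against cytosol that split was 1 higher and 8 lower; in UFSP2-KO against WT it was 10 higher and 1 lower at the membrane and 11 and 0 in the cytosol, where DESeq2 gave 3 and 0; in mRNA between knockouts it was 2 and 6. Scaling by library size moved the median of all features in membrane against cytosol to -0.16, -0.27 and -0.18, with members' medians of -0.78, -0.73 and -0.90; it gave 48 calls in UFM1-KO membrane against cytosol, 4 at the UFM1-KO membrane against WT and 2 in UFSP2-KO mRNA. With RLE factors there were 4 calls at the UFM1-KO membrane and 7 in UFSP2-KO cytosol. DESeq2 called 1 and 15 members in UFM1-KO and UFSP2-KO mRNA against WT. Without the low-count filter 1 passed in UFM1-KO mRNA and 1 in the UFM1-KO cytosol footprint change less mRNA change. With transcripts unmerged 4 passed at the UFM1-KO membrane and 1 in its mRNA, and the membrane share of UFM1-KO less WT moved from -0.51 to -0.32 percentage points. With only the groups compared, the counts were 5 and 17 at the membrane (UFM1-KO and UFSP2-KO against WT), 23 between knockouts at the membrane, 0 in UFM1-KO cytosol and 1 in UFM1-KO mRNA.

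Labels a and b are shared between groups but not said to pair libraries. Deviations of libraries with the same letter correlated from 0.0323 to 0.208 in footprints and from -0.49 to 0.0626 in mRNA. A replicate block gave 35 calls in UFM1-KO membrane against cytosol, 4 and 8 at the membrane and 11 and 9 in the cytosol (UFM1-KO and UFSP2-KO against WT), and 1 and 3 in mRNA in that order; every other count stayed within 1.5 times, with 42 in WT membrane against cytosol, 32 between knockouts in the cytosol and 35 in WT cytosol against mRNA.

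Leaving out 1 library gave counts of 17 (without WT cytosol b) to 38, 11 (without UFM1-KO membrane b) to 21 and 25 (without UFSP2-KO membrane a) to 47 in membrane against cytosol (WT, UFM1-KO, UFSP2-KO). At the membrane they were 0 throughout for UFM1-KO against WT and 8 to 11 between knockouts, with 9 without UFM1-KO a or UFSP2-KO a and 8 without UFSP2-KO b. In the cytosol they were 0 to 3 and 1 to 4 against WT and 12 to 28 between knockouts, with 15 without UFSP2-KO b. In mRNA they were 0 to 2 and 0 to 9 against WT and 4 (without UFM1-KO a) to 7 between knockouts, and in footprint change less mRNA change for UFM1-KO 0 to 1 in each fraction. A lone remaining library was assumed to vary like the other groups. Except where fewer libraries or features entered by construction, the cause was not tested. With 2 libraries in each group, the members' median SE of a log2 change was 0.19 in footprints between lines, which limits what could be detected.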
